A study of Mus musculus with 4 samples.

Results

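The genes described here are 10 genes of the cellular response to low oxygen: Hif1a, Epas1, Egln1, Egln3, Bnip3, Bnip3l, Ak4, Ankrd37, Vegfa and Ndrg1. They were chosen by name from the 54532 genes of the count table, and each matched 1 row. RNA was sequenced from mouse macrophages that were grown out of bone marrow for 7 days with 30% L929 conditioned medium, a source of M-CSF, and then transfected for 24 h with a miR-204-3p mimic (2 libraries) or with a negative-control mimic (2 libraries). A mimic is a short synthetic duplex RNA that cells load like a natural microRNA, and the comparison asks which transcripts differ in cells that received it. All 4 libraries came from transfected cells, oxygen is not named in the labels, and whether replicate libraries are separate cultures or animals is not stated in the labels, so the p-values reflect only how these 4 libraries vary, which may be technical variation. Strain, sex and age of the mice are not given in the labels.

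Hypoxia-inducible factors (HIFs) are transcription factors made of an alpha subunit, encoded by Hif1a or Epas1, and a constant partner encoded by Arnt. When oxygen is present, prolyl hydroxylases of the Egln family modify the alpha subunit, the VHL ubiquitin ligase recognises it, and it is degraded, so the factor is controlled largely at the level of protein. HIFs bind short DNA elements with the core ACGTG or GCGTG and induce genes of glycolysis, mitophagy and blood vessel growth. Egln1, Egln3 and several other genes of this set are themselves induced by HIF, and macrophages use HIF-1 also when they are activated by microbial products.

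The mimic carries the mature miR-204-3p, shown here from RefSeq (GRCm38.p6, chromosome 19, 22750649 to 22750669, plus strand) with its seed, bases 2 to 8, in capitals, because this seed defines the sites looked for in the hypoxia genes.
mmu-miR-204-3p: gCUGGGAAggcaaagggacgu
The DNA complement of this seed is TTCCCAG (7mer-m8), TTCCCAGA adds an A opposite base 1 (8mer), and TCCCAGA is the site that pairs with bases 2 to 7 and has the A (7mer-A1). The longest annotated 3′ UTR of each gene was searched on the transcript strand. Egln3 and Ak4 were the only members with a 7mer-m8 site, and each also had 1 site extended to an 8mer. Egln1 and Vegfa had a single 7mer-A1 site each, and the other 6 members had none of these 3 sites. The sites of the 4 genes are printed with their surroundings, the matched letters in capitals and the mm10 position of the match after each name.
Egln3 8mer, chr12:54179553-54179560, minus strand: agttgtgggatTTCCCAGAaccgtgggagg
Egln3 7mer-m8, chr12:54179057-54179063, minus strand: cccatgcaataTTCCCAGcgcctaaccta
Ak4 8mer, chr4:101466208-101466215, plus strand: agcaaaaggagTTCCCAGAcacaagacgtt
Ak4 7mer-m8, chr4:101465369-101465375, plus strand: ccctgagattaTTCCCAGgaaccaaggga
Ak4 7mer-m8, chr4:101465943-101465949, plus strand: tgtggtgaatcTTCCCAGgcacaaccaat
Egln1 7mer-A1, chr8:124908994-124909000, minus strand: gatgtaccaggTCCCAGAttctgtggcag
Vegfa 7mer-A1, chr17:46017494-46017500, minus strand: caatctctctcTCCCAGAtcggtgacagt
Over 11282 tested genes with an annotated 3′ UTR, 6.23% had an 8mer, 22.5% a 7mer-m8 and 16.77% a 7mer-A1 site, counting 7mers inside an 8mer as well. Counted the same way, 2 of the 10 members had an 8mer, 2 a 7mer-m8 and 4 a 7mer-A1 site, and these shares were not tested. A match of letters is a description and does not show that the microRNA binds there.

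Macrophages with the miR-204-3p mimic had less RNA of most of these genes. Of the 10 members, 7 were lower with the mimic, Hif1a and Ndrg1 did not pass the threshold, and Epas1 had too few counts to be tested. Of the lower genes, 4 fell more than 10-fold: Egln3 (34.6-fold), Ankrd37 (22.6-fold), Bnip3 (15.5-fold) and Ak4 (12.5-fold). Egln1 fell 4.64-fold, Bnip3l 2.25-fold and Vegfa 1.77-fold. These calls come from edgeR's quasi-likelihood test with Benjamini-Hochberg adjustment over all 13186 tested genes, at an adjusted p under 0.05. Over all tested genes 29.7% were lower and 31.1% higher by the same rule. The groups did not overlap for 8 of the 9 tested members, against 80.7% of all tested genes, so that separation of the groups was common in the whole transcriptome. No member was called higher, also not at an unadjusted p under 0.05 (0 members) and not with DESeq2 (0 members). The median log2 fold change of the 9 tested members was −2.21, against 0.04 over all tested genes. In bulk RNA, fewer cells that express a gene and less of its RNA per cell cannot be told apart.

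Levels below are counts per 1000000 (CPM), scaled by TMM (trimmed mean of M-values) factors. An error given with a level is the SD over the 2 libraries of a group, one given with a log2 fold change is its standard error, and every fold change is miR-204-3p mimic over control mimic. Total counts were 16837826 and 16295262 in the mimic libraries and 16446212 and 15899235 in the control libraries, and 3 counts correspond to 0.178 to 0.189 CPM of total counts, which is the most that a count of 0 allows and covers counting error only. Scaling by library size alone placed the median over all genes at 0.40 on the log2 scale, against 0.04 with TMM, so the direction of the smallest differences below depends on the scaling.

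**Figure D1:**
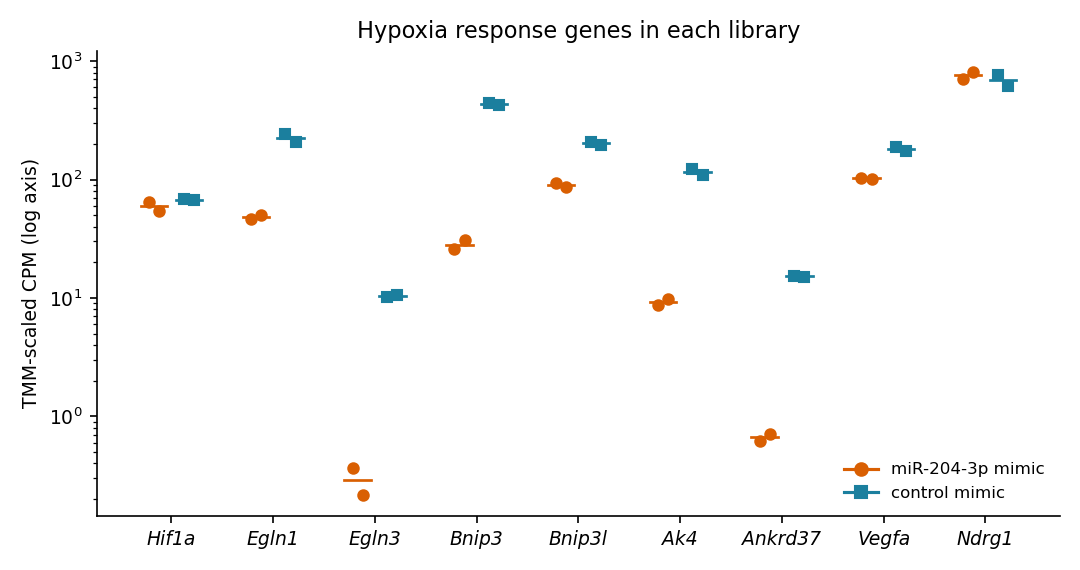
TMM-scaled CPM (log axis) of the 9 tested genes in each library, with circles for the miR-204-3p mimic, squares for the control mimic and a line at the mean of the 2 libraries. Egln3, Ankrd37, Bnip3 and Ak4 show the widest gaps between the groups, and Hif1a and Ndrg1 the narrowest; Epas1, with 1 count in all, is not drawn.

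Hif1a (ENSMUSG00000021109, mm10 chromosome 12, 73901375 to 73947530, plus strand), which encodes the oxygen-regulated subunit of HIF-1, had 65.1 and 53.9 CPM in the mimic libraries and 68.7 and 66.7 CPM in the control libraries. All 4 values lay close together, and the lower control value was just above the higher mimic value. The log2 fold change was −0.19 ± 0.14 (approximate 95% interval −0.46 to 0.08, edgeR adjusted p = 0.26), so a fall of the size seen in Egln1 lies outside the interval, while a small difference in either direction does not. The sign depended on the scaling, with 0.18 under library size alone (adjusted p = 0.27 by edgeR) and −0.35 under gene-length offsets, where edgeR called it lower (adjusted p = 0.035). Epas1 (chromosome 17, 86753907 to 86833410, plus strand), which encodes the HIF-2 alpha subunit, had 0 counts in both mimic libraries and 1 and 0 counts in the control libraries, so that at this depth its RNA was at or under the floor of 3 counts per library in both groups and no fold change can be given.

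The hydroxylase genes split. Egln1 (chromosome 8, 124908587 to 124949324, minus strand) encodes PHD2, the main prolyl hydroxylase that limits HIF at normal oxygen. It had 46.7 and 49.99 CPM with the mimic, against 241 and 208 CPM in the controls, and every control library stood far above both mimic libraries. Its log2 fold change was −2.21 ± 0.13 (edgeR adjusted p = 6.9e-09). Egln3 (chromosome 12, 54178981 to 54203860, minus strand) encodes PHD3, a hydroxylase that HIF strongly induces. It had 7 and 4 counts (0.364 and 0.218 CPM) with the mimic, against 146 and 150 counts (10.1 and 10.7 CPM) in the controls. Its mimic level was thus near the floor, and its log2 fold change of −5.11 ± 0.37 (edgeR adjusted p = 4.5e-08) was the largest among the members. Only 0.508% of tested genes had a lower log2 fold change than Egln3. The third prolyl hydroxylase gene, Egln2, is not a HIF target in the usual description and is not one of the 10 genes. It had 48.4 ± 6.73 CPM with the mimic and 58.1 ± 5.03 CPM in the controls and did not pass (log2 fold change −0.26 ± 0.15, edgeR adjusted p = 0.13).

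Set side by side within each library and per kb of gene length, Egln1 was below Egln2 with the mimic (ratios 0.685 and 0.893) and above it in the controls (3.44 and 2.63). The ratio of Egln3 to Egln1 was 0.0105 and 0.0059 with the mimic and 0.0568 and 0.0692 in the controls, so Egln3 was lower also relative to Egln1. For 2 libraries against 2, an exact two-sided permutation test of such a ratio cannot give a p below 0.333, and both ratios reached that value.

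**Figure D2:**
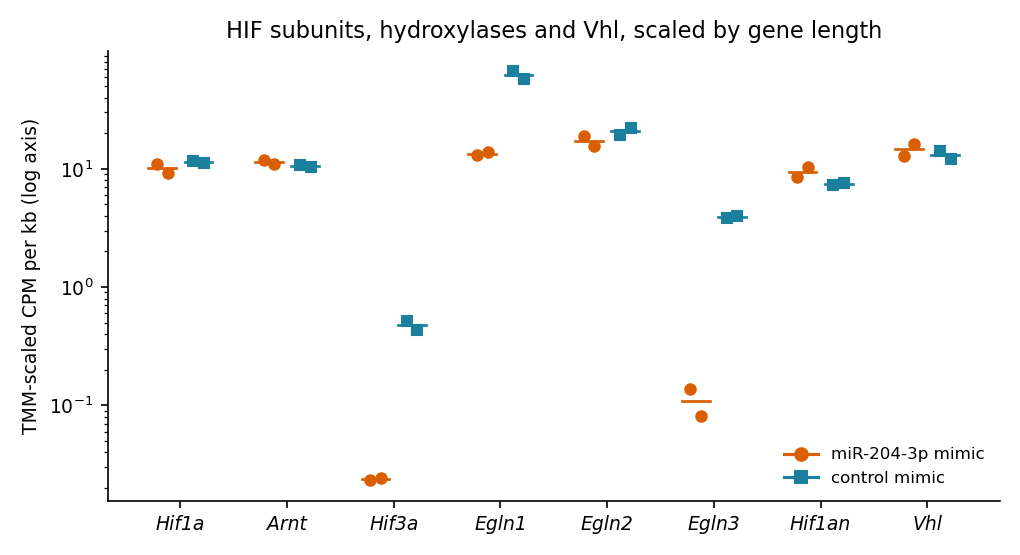
TMM-scaled CPM per kb of gene length (log axis) of HIF subunits, hydroxylases and Vhl in each library, with circles for the miR-204-3p mimic, squares for the control mimic and a line at the mean. Egln1, Egln3 and Hif3a lie far lower with the mimic, while Hif1a, Arnt, Egln2 and Vhl did not pass the test. Hif1an was called higher close to the threshold (log2 fold change 0.35 ± 0.14, edgeR adjusted p = 0.044).

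The other genes of the oxygen-sensing machinery came from a list of 19 genes, of which 16 were tested. Of these, 7 were higher, 4 were lower and 5 did not pass, while 31.1% of all tested genes were higher and 29.7% lower. The list's median was 0.17 on the log2 scale, near that of all tested genes. The higher genes with the lowest p were the coactivator genes Crebbp (77.0 ± 0.822 CPM with the mimic and 18.5 ± 2.11 CPM in the controls) and Ep300 (127 ± 12.8 CPM with the mimic and 42.5 ± 3.58 CPM in the controls), whose products acetylate histones at HIF target genes, and Cul2, the scaffold of the VHL ubiquitin ligase (72.7 ± 9.91 CPM with the mimic and 45.3 ± 6.11 CPM in the controls). Among the lower ones, Hif3a, which encodes a HIF alpha subunit with forms that restrain the other alpha subunits, had 3 and 3 counts with the mimic against 50 and 41 in the controls (log2 fold change −4.26 ± 0.54, edgeR adjusted p = 9.8e-06). Rack1, which encodes a ribosome-bound protein that also promotes degradation of the HIF-1 alpha subunit, fell 1.99-fold. Rbx1, the RING subunit of the ligase, fell 1.39-fold, and edgeR did not call it under library size alone (log2 fold change −0.12, adjusted p = 0.45). Arnt (91.0 ± 5.33 CPM with the mimic, 85.0 ± 2.79 CPM in the controls) and Vhl (43.8 ± 7.2 CPM with the mimic, 39.2 ± 4.23 CPM in the controls), named outside the rule for their roles, did not pass (adjusted p = 0.50 and 0.41 by edgeR). Under library size alone 11 genes of this list were higher and 2 lower. That scaling also moved the calls over all 13186 tested genes, to 6151 higher and 2513 lower.

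The mitophagy receptor genes among the members, Bnip3 and Bnip3l, fell unequally. Bnip3 (ENSMUSG00000078566, chromosome 7, 138890836 to 138909519, minus strand) encodes a receptor in the outer mitochondrial membrane that recruits the autophagy machinery and is a standard marker of HIF-1 activity. It had 25.9 and 30.6 CPM with the mimic, against 447 and 430 CPM in the controls. The replicates of each group were close to each other and the groups far apart, with a log2 fold change of −3.96 ± 0.15 (edgeR adjusted p = 7.2e-11). Only 1.08% of tested genes had a lower log2 fold change. Bnip3l (chromosome 14, 66985239 to 67008877, minus strand), which encodes the related receptor NIX, had 93.1 and 86.9 CPM with the mimic, against 209 and 196 CPM in the controls. Both mimic libraries lay below both controls (log2 fold change −1.17 ± 0.12, edgeR adjusted p = 2.0e-06).

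Per kb of gene length, Bnip3 was the more abundant of the pair in the controls and the less abundant with the mimic. The ratio of Bnip3 to Bnip3l was 0.473 and 0.599 in the mimic libraries, against 3.65 and 3.73 in the control libraries (exact permutation p = 0.333, the smallest that 4 libraries allow). Some reads of both genes could have been counted elsewhere. Of the 50-base words in Bnip3 transcripts, 47.2% also occur in transcripts of another gene on either strand, mostly the lincRNA AC160336.1 (33.9%), which had 13 and 26 counts with the mimic and 16 and 14 in the controls. The pseudogene Gm6532, which holds 10.8% of them, had 2 and 0 counts with the mimic and 24 and 14 in the controls, while Gm9419, a pseudogene with 1.64% of them, ran the other way, with 12 and 17 counts with the mimic and 0 in both controls. Bnip3 itself had 497 and 560 counts with the mimic and 6448 and 6045 in the controls. For Bnip3l the share was 20.8%, all with the pseudogene Bnip3l-ps, which had 140 and 133 counts with the mimic and 283 and 257 in the controls. Bnip3l itself had 1790 and 1593 counts with the mimic and 3012 and 2761 in the controls.

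**Figure D3:**
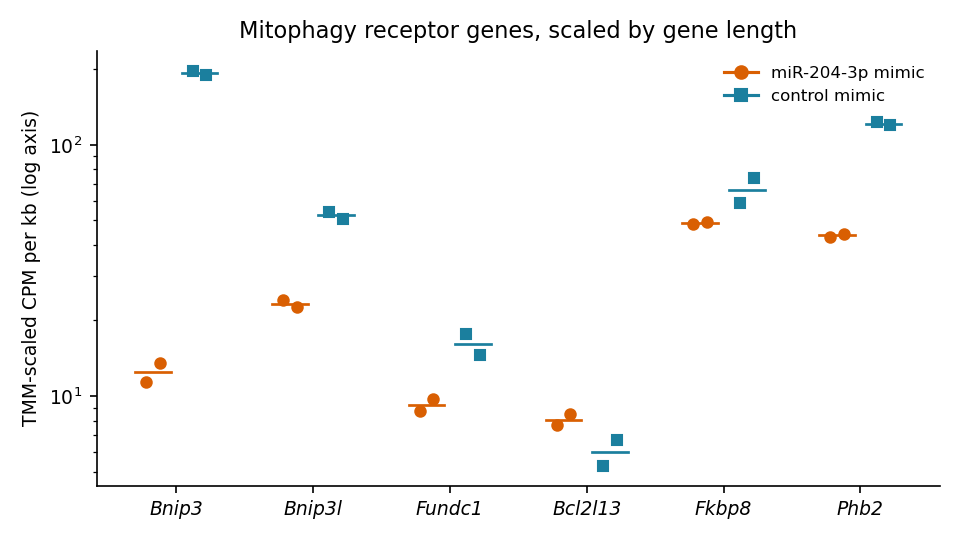
TMM-scaled CPM per kb of gene length (log axis) of 6 mitophagy receptor genes in each library, with circles for the miR-204-3p mimic, squares for the control mimic and a line at the mean. Bnip3 is the highest of the 6 in the controls, at 197 and 190, and lies at 11.4 and 13.5 with the mimic, below Bnip3l at 24.1 and 22.5.

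A list of 12 other mitophagy genes had calls in both directions, with 4 of 11 tested genes higher, 6 lower and 1 not passing (median −0.62). Over all tested genes 31.1% were higher and 29.7% lower. Sqstm1, which encodes the autophagy adaptor p62, rose to 4505 ± 116 CPM with the mimic, against 658 ± 88.4 CPM in the controls, a 6.84-fold difference. Ulk1, which encodes the kinase that starts autophagy, rose 1.7-fold, and Bcl2l13, another mitochondrial receptor, 1.35-fold. The edgeR call of Bcl2l13 was lost under gene-length offsets (adjusted p = 0.30), without mimic replicate 2 (adjusted p = 0.072) and without control replicate 1 (adjusted p = 0.24). Pink1, which encodes the kinase that marks damaged mitochondria, fell 3.23-fold, the prohibitin gene Phb2 2.78-fold and Gabarapl1, an LC3-like protein, 1.61-fold. The call of Gabarapl1 was lost under library size alone (edgeR adjusted p = 0.053). The counts of this list also depended on these choices, with 2 genes higher under gene-length offsets, without mimic replicate 2 or without control replicate 1, and 3 lower under library size alone.

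Ak4 and Ankrd37 fell in parallel with Bnip3. Ak4 (chromosome 4, 101419277 to 101466995, plus strand) encodes a mitochondrial adenylate kinase. It had 8.79 and 9.71 CPM with the mimic, against 122 and 109 CPM in the controls (log2 fold change −3.64 ± 0.15, edgeR adjusted p = 1.9e-10). The groups were far apart and the libraries within each close. Its processed pseudogene Ak3l2-ps, which holds 10.2% of the 50-base words of Ak4, had 2 and 4 counts with the mimic and 56 and 71 in the controls. Ankrd37 (chromosome 8, 45996902 to 46005707, minus strand), which encodes a small ankyrin repeat protein and is a direct HIF-1 target, had 12 and 13 counts (0.624 and 0.709 CPM) with the mimic, against 222 and 212 counts (15.4 and 15.1 CPM) in the controls. Both groups were tight, and the log2 fold change was −4.50 ± 0.30 (edgeR adjusted p = 1.5e-08). The gene overlaps Ufsp2 by 57 bases and Lrp2bp by 6405 bases on the opposite strand, and counting was not stated to use strand. Lrp2bp had 2 and 5 counts with the mimic and 3 and 0 in the controls. Ufsp2 had 707 and 681 counts with the mimic and 1181 and 1089 in the controls and was called lower (log2 fold change −1.11), and its part in the Ankrd37 counts was not tested.

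The adenylate kinase relative Ak1 fell 3.17-fold. The mitochondrial relative Ak3, named outside the rule for comparison, did not pass (log2 fold change −0.16, edgeR adjusted p = 0.33). Within each library and per kb, the ratio of Ak4 to Ak3 was 0.126 and 0.115 with the mimic and 1.39 and 1.29 in the controls (exact permutation p = 0.333).

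Vegfa fell least of the called members. Vegfa (chromosome 17, 46016993 to 46032369, minus strand) encodes the growth factor that HIF induces for blood vessel growth and that macrophages secrete. It had 103 and 102 CPM with the mimic, against 190 and 173 CPM in the controls. The groups were well separated and the mimic libraries nearly equal, with a log2 fold change of −0.83 ± 0.12 (edgeR adjusted p = 5.2e-05). Under library size alone the value was −0.46 and still passed by edgeR (adjusted p = 0.0044). The related gene Vegfb, named outside the rule for comparison, had 47.8 ± 0.516 CPM with the mimic and 75.8 ± 2.15 CPM in the controls, and the ratio of Vegfa to Vegfb per kb was 0.810 and 0.792 with the mimic and 0.919 and 0.870 in the controls.

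Ndrg1 did not follow the others. Ndrg1 (chromosome 15, 66929318 to 66969640, minus strand), a gene that HIF-1, metals and differentiation induce in many cell types, had 712 and 811 CPM with the mimic, against 768 and 614 CPM in the controls. The groups overlapped, with the lowest and second highest values both in the controls, and the log2 fold change was 0.14 ± 0.14 (approximate 95% interval −0.13 to 0.41, edgeR adjusted p = 0.40). Under library size alone it was 0.50 and called higher by edgeR (adjusted p = 0.0049), while under gene-length offsets and without control replicate 2 the sign turned, at −0.047 and −0.023. A fall of the size seen in Vegfa or the other lower members lies outside its interval. Ndrg1 made up 67.5% and 70.9% of the counts of the 10 genes in the mimic libraries, against 37.1% and 33.7% in the control libraries. The other 9 genes together held 0.0392% and 0.0375% of all counts with the mimic, against 0.114% and 0.107% in the controls. Among its relatives Ndrg2 fell 2.88-fold and, named outside the rule, Ndrg3 fell 2.3-fold while Ndrg4 rose 2.69-fold (edgeR adjusted p = 0.0024).

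**Figure D4:**
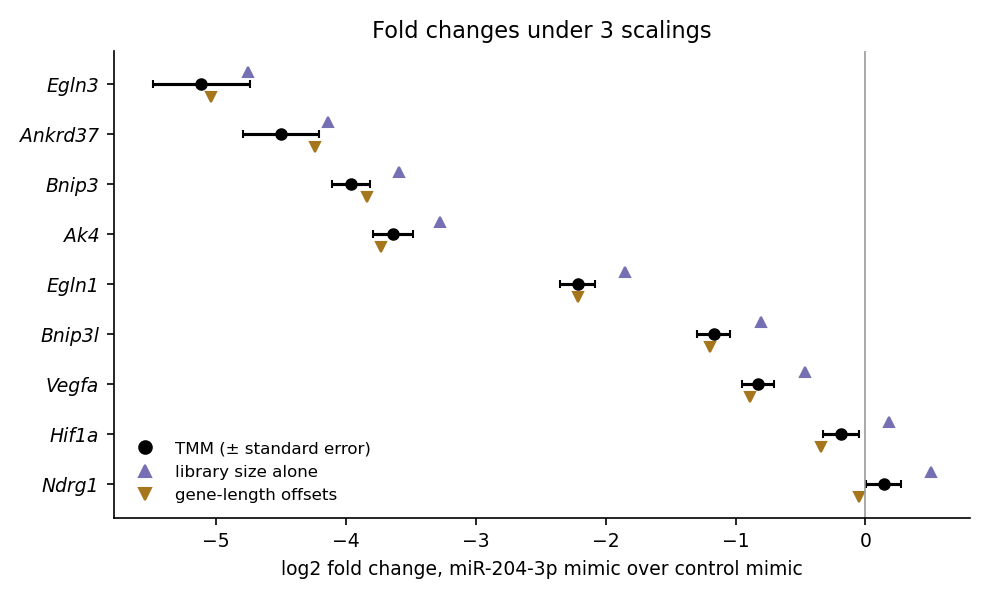
Log2 fold change, miR-204-3p mimic over control mimic, of the 9 tested genes under TMM scaling (circles, ± standard error), library size alone (upward triangles) and gene-length offsets (downward triangles). The 7 lower genes stay left of 0 under each, from Egln3 at −5.11 to Vegfa at −0.83 with TMM, while Hif1a and Ndrg1 cross 0.

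Ordered by level per kb, the members changed places. With the mimic, Ndrg1 stood first (115 ± 10.7 CPM per kb), followed by Vegfa (23.8 ± 0.138), Bnip3l (23.3 ± 1.14), Egln1 (13.5 ± 0.642), Bnip3 (12.5 ± 1.47), Hif1a (10.1 ± 1.35), Ak4 (1.99 ± 0.14), Ankrd37 (0.433 ± 0.0391) and Egln3 (0.109 ± 0.0388). In the controls, Bnip3 stood first (194 ± 5.46 CPM per kb), followed by Ndrg1 (105 ± 16.5), Egln1 (62.4 ± 6.38), Bnip3l (52.5 ± 2.31), Vegfa (42.3 ± 2.84), Ak4 (24.9 ± 2.11), Hif1a (11.5 ± 0.246), Ankrd37 (9.90 ± 0.15) and Egln3 (3.90 ± 0.143). With the mimic the neighbours Vegfa and Bnip3l, and Egln1 and Bnip3, had overlapping libraries, whereas no neighbours overlapped in the controls. Epas1 was last in both groups.

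Promoter windows of 250 bases before the RefSeq transcription start were available for 7 members, which were Hif1a, Egln1, Egln3, Bnip3, Ak4, Ankrd37 and Vegfa. The HIF core motifs ACGTG and GCGTG were searched on both strands, and overlapping matches, such as both strands of CACGTG, were counted separately. At least 1 match was found in the windows of all 7 genes except 1 of the 2 Vegfa windows, which had 0 while the other had 2. Over the mouse table, 38.6% of 32851 windows had a match. The Vegfa window with 0 matches lies upstream of the gene as placed in the count table, and the one with 2 lies inside the gene. The windows of Hif1a and Ankrd37 and 1 of the 4 Ak4 windows also lie inside their genes. Bnip3 had 5 matches, Ankrd37 4, Hif1a 3, Egln1 2, each of the 4 Ak4 windows 2 and Egln3 1, while 6.58% of all windows had 3 or more. The windows of Bnip3, Ankrd37, Egln1, Egln3, the member that fell most, and Vegfa, the called member that fell least, are printed for comparison, matches in capitals, from GRCm38.p6 and in the direction of transcription.
Bnip3, chr7:138909507-138909756, minus strand: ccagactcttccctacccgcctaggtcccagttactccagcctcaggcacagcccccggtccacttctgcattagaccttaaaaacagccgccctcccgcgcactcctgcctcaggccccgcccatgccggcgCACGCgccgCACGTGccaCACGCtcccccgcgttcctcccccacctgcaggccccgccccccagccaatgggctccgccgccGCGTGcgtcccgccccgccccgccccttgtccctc
Ankrd37, chr8:45999851-46000100, minus strand: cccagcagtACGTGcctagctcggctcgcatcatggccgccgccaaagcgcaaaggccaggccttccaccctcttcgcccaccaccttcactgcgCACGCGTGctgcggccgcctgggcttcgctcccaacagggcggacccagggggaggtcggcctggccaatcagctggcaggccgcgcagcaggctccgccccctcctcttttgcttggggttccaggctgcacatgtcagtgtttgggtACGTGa
Egln1, chr8:124949255-124949504, minus strand: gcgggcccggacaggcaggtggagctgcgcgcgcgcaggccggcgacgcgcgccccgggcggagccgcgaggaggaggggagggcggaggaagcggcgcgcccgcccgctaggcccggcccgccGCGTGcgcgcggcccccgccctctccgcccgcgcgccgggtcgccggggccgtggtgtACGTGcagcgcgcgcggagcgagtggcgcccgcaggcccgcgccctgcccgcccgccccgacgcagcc
Egln3, chr12:54203875-54204124, minus strand: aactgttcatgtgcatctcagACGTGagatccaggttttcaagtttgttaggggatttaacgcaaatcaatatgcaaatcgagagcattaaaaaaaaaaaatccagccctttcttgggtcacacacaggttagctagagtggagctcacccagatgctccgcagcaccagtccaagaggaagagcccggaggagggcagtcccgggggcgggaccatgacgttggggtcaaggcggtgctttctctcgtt
Vegfa, window without a match, chr17:46032378-46032627, minus strand: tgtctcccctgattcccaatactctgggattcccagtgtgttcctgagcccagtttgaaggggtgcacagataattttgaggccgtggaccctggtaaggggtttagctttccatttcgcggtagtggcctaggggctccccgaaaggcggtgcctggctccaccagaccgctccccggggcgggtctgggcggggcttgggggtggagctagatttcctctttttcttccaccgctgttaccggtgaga
Vegfa, window with 2 matches, chr17:46025164-46025413, minus strand: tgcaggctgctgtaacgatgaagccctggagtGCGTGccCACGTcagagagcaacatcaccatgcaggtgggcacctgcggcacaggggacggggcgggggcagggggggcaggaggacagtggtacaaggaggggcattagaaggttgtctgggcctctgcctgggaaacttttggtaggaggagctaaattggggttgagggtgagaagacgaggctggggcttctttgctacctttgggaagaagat
In Bnip3 the matches were centred 115, 106, 105, 97 and 33 bases before the start, and in Egln1 124 and 66 bases before it. In Hif1a, which did not pass the threshold, they were centred 133, 132 and 68 bases before the start. The matches at 133 and 132 in Hif1a, and those at 106 and 105 in Bnip3, are both strands of 1 CACGTG. A match shows only that these letters are present, and HIF binding was not measured in this study.

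Other HIF targets fell with these genes, though not all of them. Of 22 glycolytic HIF targets 21 were tested, 18 were lower, 1 was higher and 2 did not pass (median −1.91). Among all tested genes 29.7% were lower and 31.1% higher. Aldoc, Pfkl and Gpi1, which encode enzymes of early glycolysis, fell 13.8-fold, 8.3-fold and 8.07-fold. Slc2a1, the glucose transporter gene, was the one that rose (231 ± 23.0 CPM with the mimic and 164 ± 10.1 CPM in the controls, edgeR adjusted p = 0.0045). Among the 18 lower genes, Gapdh, chosen after its values were seen, had 1676 and 143 counts with the mimic and 7800 and 236 in the controls, so its replicates differed more than its groups. The list was drawn up with earlier results of these data known, and its direction is no independent evidence.

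Of 32 other HIF targets 24 were tested, 15 were lower, 5 were higher and 4 did not pass (median −0.87). The shares over all tested genes were again 29.7% lower and 31.1% higher. Fam162a, which encodes a mitochondrial protein induced by hypoxia, had 29.9 ± 1.7 CPM with the mimic, against 311 ± 17.8 CPM in the controls. The chemokine receptor gene Cxcr4 fell 8.1-fold and Ddit4, an inhibitor of mTORC1 signalling, 6.4-fold. Nos2, Tfrc and Hmox1 rose. Nos2, the inducible nitric oxide synthase gene, had 153 ± 14.2 CPM with the mimic and 7.94 ± 2.79 CPM in the controls, and it is also a target of interferon and NF-kB signalling. The transferrin receptor gene Tfrc, which is controlled by iron as well, rose 4.25-fold, and the haem oxygenase gene Hmox1, an NRF2 target, 1.83-fold.

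A list of 17 family relatives and VEGF receptors had 12 tested genes, of which 4 were higher, 5 lower and 3 not passing (median −0.14). The shares over all tested genes were 31.1% higher and 29.7% lower. The neuropilin genes Nrp2 and Nrp1, coreceptors for VEGF, rose 2.58-fold and 2.21-fold. The receptor genes Kdr and Flt1 had at most 4 counts in any library. Vegfc, the growth factor gene for lymphatic vessels, had 45 and 69 counts with the mimic against 2 and 0 in the controls (ratio 43.3, 95% counting interval 11.7 to 362). Its fitted log2 fold change of 5.30 became 8.71 without control replicate 1 and 4.38 without control replicate 2.

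**Figure D5:**
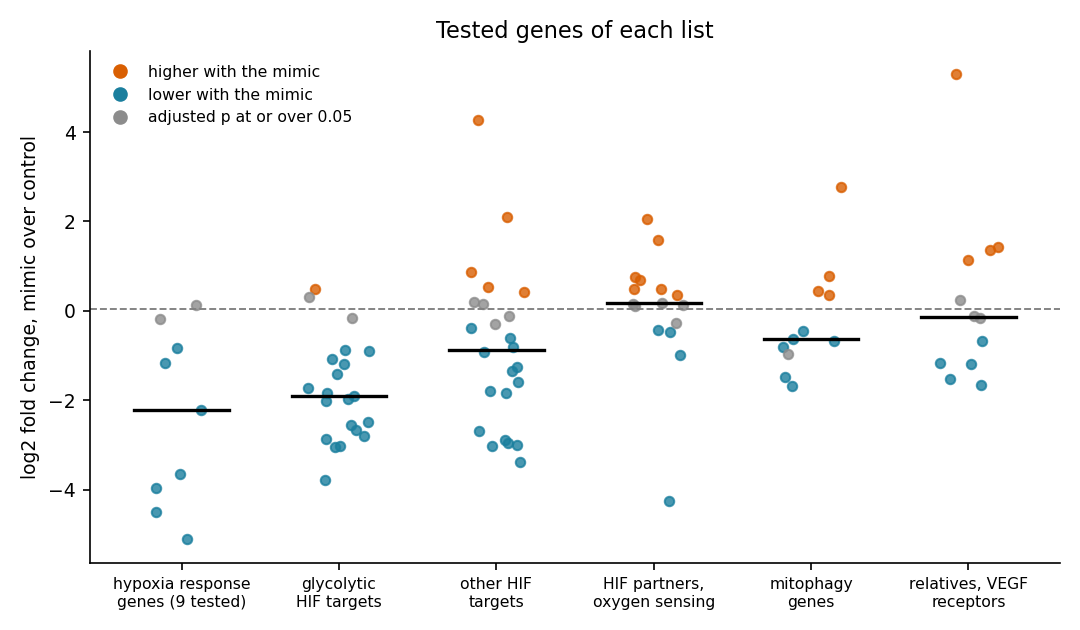
Log2 fold change, miR-204-3p mimic over control mimic, of every tested gene of the hypoxia response genes and of the 5 lists, coloured by the edgeR call, with a black line at each list's median and a dashed line at the median of all tested genes (0.04). The members (median −2.21) and the glycolytic targets (−1.91) lie mostly below the dashed line, and the oxygen-sensing list (0.17) lies around it.

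Markers of cell type moved in the same libraries. Beside the counts of calls given below, 29.7% of all tested genes were lower and 31.1% higher. The 9 macrophage markers summed to 3479 to 3492 CPM with the mimic and 17271 to 19147 CPM in the controls, and 7 were lower and 1, Fcgr1, was higher. The remaining one, Mertk, was not tested and stood at 0 to 0.109 CPM with the mimic and 0.624 to 0.711 CPM in the controls. B cell markers summed to 3.38 to 3.82 CPM with the mimic and 225 to 250 CPM in the controls (3 of 6 lower), with the defining marker Ms4a1 at 0 counts in all 4 libraries. Dendritic cell markers summed to 4.37 to 4.58 CPM with the mimic and 38.0 to 46.9 CPM in the controls (2 of 6 lower, Siglech at 0 with the mimic), and neutrophil markers to 11.2 to 15.4 CPM with the mimic and 174 to 241 CPM in the controls (3 of 7 lower, Elane at 0 with the mimic and Ly6g at 0 in all libraries). Prtn3 made up most of the neutrophil sum in the controls, with 0.312 and 0.109 CPM with the mimic and 134 and 174 CPM in the controls. S100a8 did not pass (13 and 17 counts with the mimic, 6 and 8 in the controls), and Mpo, which was not tested, had 1 and 8 counts with the mimic and 0 in both controls. Markers of fibroblasts, erythroid cells, mast cells and T or NK cells summed to at most 1.32 CPM in any library. The part of these shifts in the lower hypoxia genes was not tested.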

How the data were processed

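RNA-seq of mouse bone marrow-derived macrophages was analysed in 2 miR-204-3p mimic and 2 control mimic libraries. The authors deposited whole-number raw counts for 54532 genes with coordinates and gene length. The submitters' processing notes name HISAT2 and mm10. The counting program and strand setting are not given in the sources used here. No row lacked a gene and no column of values was left unused. Of the gene IDs, 54495 were in GENCODE M21, 98.3% of them at the same position, and 9 of the 10 members were.

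Genes were tested in R 4.3.3 with edgeR 4.0.16 (glmQLFit and glmQLFTest, two-sided, group only, TMM factors of 1.14 and 1.13 for the mimic and 0.878 and 0.886 for the control libraries, filterByExpr, Benjamini-Hochberg at 0.05 over 13186 genes). The fit was also run on simulated counts in which only a small share of genes changed. Most tested genes were called in the real data, so that run does not show how the fit behaves here. Standard errors come from the F statistic. The 10 members and 13 gene lists were chosen with earlier results of these data known. All members are named, with up to 3 genes per list and direction of lowest p. Aldoa had 2 rows, and the longer gene was used. Some genes of the lists are not reported here. Alternatives were DESeq2 1.42.0 size factors and test, library size alone, no filter, gene-length offsets (loess trend on log2 length), a replicate block and leaving out each library. Replicate chi-squares per degree of freedom were 16.6 (mimic) and 11.3 (control), so the replicates are distinct libraries. Shared sequence was counted in 50-base words of GENCODE M21 transcripts.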

Additional observations from a re-analysis of the deposited data

How the results depend on the processing

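The 7 lower members kept their direction and their edgeR or DESeq2 call under all 10 alternatives, and Hif1a and Ndrg1 did not keep theirs. Under library size alone, 1 member was higher, the oxygen-sensing list had 11 higher and 2 lower genes, the glycolytic list 2 higher and the mitophagy list 3 lower. Of all 13186 tested genes, 6151 were then higher and 2513 lower, against 4101 and 3921 with TMM. In that fit Hif1a turned to 0.18 on the log2 scale. Under gene-length offsets the mitophagy list had 2 higher genes, and Ndrg1 turned to −0.047. Leaving out 1 library at a time, Ndrg1 ran from −0.023 (without control replicate 2) to 0.296. Leaving out 1 library at a time gave 1 to 2 higher glycolytic genes and 2 to 4 higher mitophagy genes. These fits have 1 library in a group, which is assumed to vary like the others. The cause of these shifts was not tested. Of 370 values of single named genes under the alternatives, 360 kept direction and side of the threshold, 5 lost the call, 2 gained one and 3 changed sign.

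Replicate numbers are shared by the groups, but deviations of same-numbered libraries correlated at only r = 0.024 over genes, so the numbers do not show a pairing. With the replicate number as a block, 7 members were lower, 0 were higher and 8070 genes passed in all, against 8022 without it. Depth limits Epas1, at 1 count in all, and the size of the changes of Egln3 and Ankrd37, which had 4 to 13 counts per mimic library.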
